A study of Oryctolagus cuniculus with 6 samples.

Results

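The visual cycle and retinoid carrier genes were followed here in retinas of normal rabbits and of rabbits with proliferative vitreoretinopathy (PVR). They were chosen by name, as 9 genes among the 28788 in the tables: LRAT, RPE65, RDH5, RDH10, RDH11, RDH12, RBP3, STRA6 and ABCA4. A row under the symbol itself was found for 8 of them. RDH5 was found through its RefSeq gene ID, and it was the only one of the 9 with too few counts to be tested.

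The samples were 3 normal retinas and 3 retinas with PVR, from adult rabbits. No strain, sex, exact age or time of collection is given in the sources used here. In the PVR model the sclera was punctured, some vitreous was drawn off, and platelet-rich plasma was injected into the vitreous cavity of the eye. No eye with a puncture and no plasma was among the samples, so the injury and the plasma cannot be told apart. Polyadenylated RNA was sequenced, and between 31904593 and 43035080 reads were counted per sample.

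The visual cycle rebuilds the light-absorbing chromophore of the opsins after a photon has turned it into all-trans-retinal. It runs between the photoreceptors and the retinal pigment epithelium (RPE), the pigmented layer behind them. In the photoreceptors, ABCA4 moves retinal across the disc membrane and retinol dehydrogenases such as RDH8 and RDH12 reduce it. RBP3 (also called IRBP) binds retinoids in the space between the cell layers. In the RPE, LRAT esterifies retinol, RPE65 isomerises the ester, and RDH5 and related dehydrogenases oxidise the product back to retinal. STRA6 is a receptor for the retinol carried in blood by RBP4. RPE cells are also among the cells that take part in the membranes of PVR.

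Of the 8 genes tested, all had a fitted log2 fold change under 0 (PVR over normal), as did 51.1% of all 18697 genes tested. They spanned from near no difference to a several-fold decrease. The largest decreases were fitted for genes of the RPE side of the cycle, LRAT, STRA6 and RPE65, and the smallest for ABCA4 and RDH12 of the photoreceptors. LRAT passed both thresholds, adjusted p under 0.05 together with a fold change above 1 in size on the log2 scale (1 of 8, against 0.316% of all genes tested that were lower by these thresholds). Counting the adjusted p alone, LRAT and RDH11 passed (2 of 8, against 0.615% lower by that criterion). A fold change under -1, whatever its p, was fitted for 3 of the 8 and for 3.43% of all genes tested. On CPM, counts relative to library size with TMM scaling, every PVR sample was below every normal sample for 7 of the 8, against 14.6% of all genes tested. On FPKM, the authors' value per gene length and library total, this held for 5 of the 8, against 9.69%. The median log2 fold change was -0.64 over the 8 genes and -0.01 over all genes tested. In bulk tissue, fewer cells of a type and less RNA per cell cannot be told apart, which holds for every value given here.

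**Figure D1:**
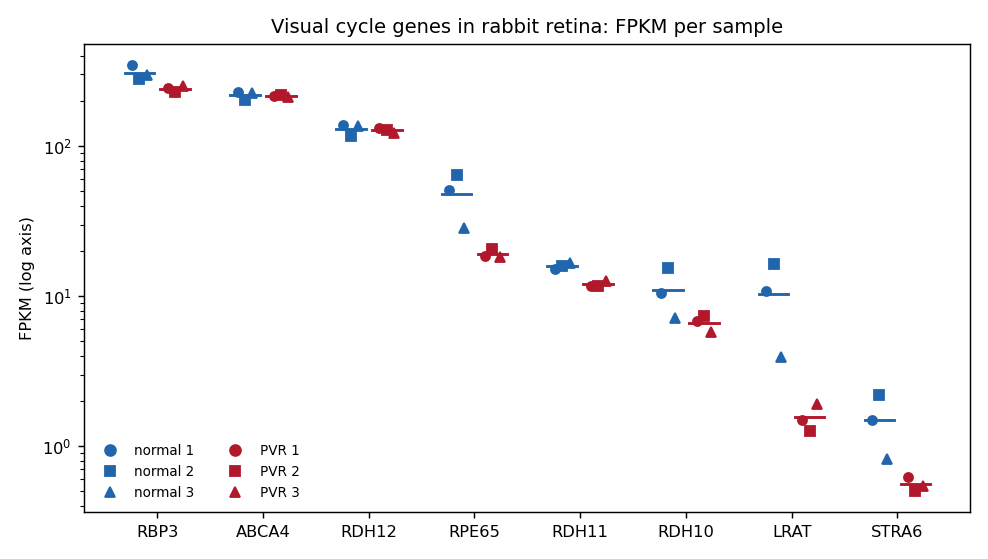
FPKM (vertical log axis) of the 8 visual cycle genes with enough counts in the 3 normal (blue) and 3 PVR (red) retinas. Symbols mark the replicate number and bars the group mean; LRAT falls from a mean of 10.4 to 1.56, while ABCA4 stays at 220.2 and 215.8.

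LRAT, the acyltransferase that makes the retinyl esters used by RPE65, had the largest decrease of the 8. Its FPKM was 10.8, 16.5 and 3.91 in normal replicates 1, 2 and 3. In PVR replicates 1, 2 and 3 it was 1.50, 1.27 and 1.91. The groups did not overlap, and normal replicate 3 lay closest to the PVR samples. The counts behind these values were 2001, 3200 and 745 in the normal retinas against 228, 195 and 390 in the PVR samples. The means were 10.4 ± 6.30 FPKM (SD, n = 3) and 1.56 ± 0.323 FPKM (SD, n = 3), and LRAT fell by 2.82 on the log2 scale (standard error, SE, 0.50), with an adjusted p of 0.0459 by the quasi-likelihood test of edgeR. This p is just under the threshold, and it was above it in 9 of the 15 other settings tried. It was 0.126, 0.104, 0.24, 0.125 and 0.0523 without normal replicate 1, normal replicate 2, PVR replicate 1, PVR replicate 2 and PVR replicate 3, and 0.00294 without normal replicate 3. The fitted log2 fold change stayed between -3.21 and -1.98 in all 15. A long noncoding RNA locus overlaps LRAT in the RefSeq assembly mOryCun1.1, and it had at most 3 counts in any sample. Whether the overlap altered the counts of LRAT was not tested.

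RPE65, the retinoid isomerase and the defining enzyme of the RPE, had a higher mean FPKM than LRAT, STRA6 and RDH10 in both groups. Its FPKM was 51.0, 64.0 and 28.4 in the normal samples. The PVR samples had 18.4, 20.6 and 18.2. They were nearly equal to each other and all below the lowest normal sample, again replicate 3. The ratio of the normal to the PVR mean was 2.50 on the FPKM scale. The fitted log2 fold change was -1.40 (SE 0.28), and the adjusted p of 0.058 missed the threshold. With DESeq2 the adjusted p was 7.67e-07, and without normal replicate 3 it was 0.00246, whereas it reached 0.268 without PVR replicate 1.

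STRA6, the retinol uptake receptor, was the least abundant of the 8. It had 287, 441 and 163 counts in the normal retinas against 99, 81 and 115 in the PVR samples. In FPKM these were 1.49, 2.18 and 0.821 against 0.626, 0.505 and 0.539, with no overlap. Its fitted log2 fold change was -1.50 (SE 0.37, adjusted p = 0.087), on the far side of the threshold. DESeq2 gave an adjusted p of 0.00128, and without normal replicate 3 it was 0.0189. These were the only 2 of the 15 other settings with an adjusted p under 0.05, and it reached 0.291 without PVR replicate 1. A noncoding locus that overlaps STRA6 in the same assembly had at most 8 counts, and its effect on the counts of STRA6 was not tested.

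RDH10 is a retinol dehydrogenase found in the RPE and in Müller glia, the radial support cells of the retina. Its FPKM was 10.5, 15.4 and 7.12 in the normal retinas against 6.78, 7.32 and 5.74 in the PVR samples. PVR replicate 2 was above normal replicate 3, so the groups overlapped on this scale. On TMM-scaled CPM the same pair were in the opposite order, at 20.7 and 20.9. The fitted log2 fold change was -0.81 (SE 0.28, adjusted p = 0.161). Leaving out normal replicate 2 gave -0.46 and leaving out normal replicate 3 gave -1.05, where the adjusted p was 0.0471.

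RDH5, the cis-retinol dehydrogenase named for the RPE, was close to the limit of counting. Its row had 0, 4 and 0 counts in the normal retinas against 0, 1 and 0 in the PVR samples. No fold is given, since such counts allow none. The low count is that of this row only, which rests on the authors' gene models.

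The PVR samples were close to each other in these genes and the normal samples were not. The coefficient of variation of the TMM-scaled CPM was 62.3% for LRAT, 39.6% for RPE65, 47.5% for STRA6 and 40.2% for RDH10 over the normal samples. Over the PVR samples it was 22.2%, 5.73%, 11.5% and 10.8% in the same order of genes. The 4 genes ranked the normal samples alike, with replicate 2 the highest and replicate 3 the lowest. This order was that of 18.1% of all genes tested and of 7 of the 13 tested pigment epithelium markers, such as TYRP1. LRAT was 4.42 times as high in normal replicate 2 as in normal replicate 3, and RPE65 was 2.36 times as high.

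**Figure D2:**
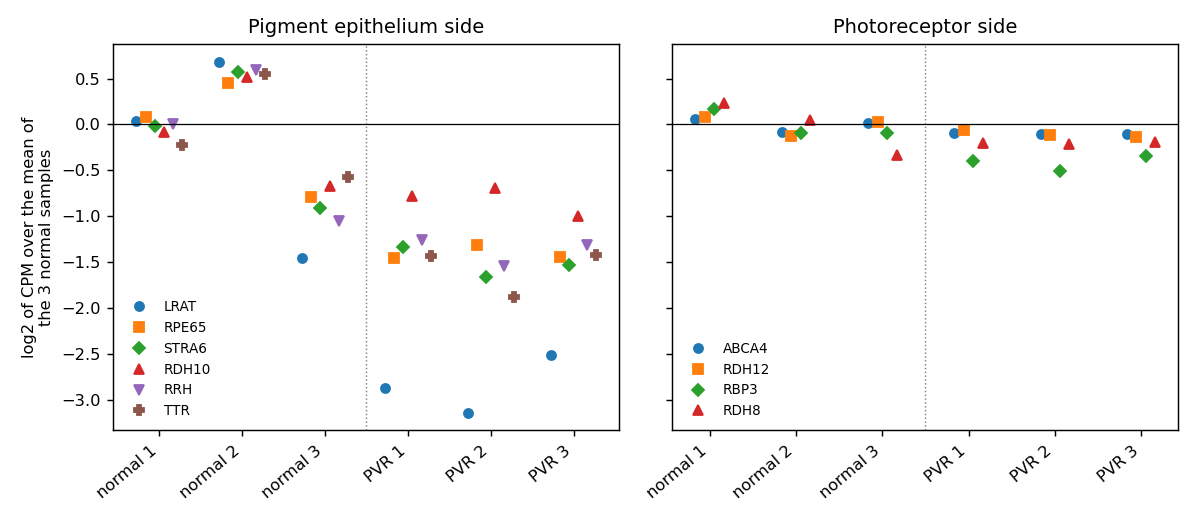
Log2 of the TMM-scaled CPM of each gene in each sample, relative to the mean of its 3 normal samples (0), for RPE-side genes (left) and photoreceptor-side genes (right). The left-hand genes, a chosen set in which RRH was picked after its values had been seen, are highest in normal 2 and lower in normal 3. RGR and RDH11, also expressed in the RPE, are not drawn and were highest in normal 3 among the normal samples. The right-hand genes stay between -0.51 and 0.23, with RBP3 the lowest in PVR.

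On the photoreceptor side the levels were high and the differences small. ABCA4, the retinoid transporter of the disc membrane, had an FPKM of 230.2, 203.6 and 226.8 in the normal samples. It had 217.3, 218.0 and 212.2 in the PVR samples, and the groups overlapped. Its fitted log2 fold change was -0.10 (SE 0.08, adjusted p = 0.494), with a range of -0.13 to -0.03 over the 15 other settings. On TMM-scaled CPM the groups were narrowly apart, with a highest PVR sample of 1556 CPM and a lowest normal sample of 1570 CPM. The noncoding loci that overlap ABCA4 in mOryCun1.1 had between 382 and 724 and between 384 and 1420 counts per sample, against at least 50878 for ABCA4 itself. Their effect on the counts of ABCA4 was not tested.

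RDH12, which reduces retinal in the photoreceptors, behaved much as ABCA4 in its values. Its FPKM was 138.4, 116.8 and 136.1 in the normal retinas against 131.8, 128.5 and 122.3 in the PVR samples, with overlap. The fitted log2 fold change was -0.10 (SE 0.08, adjusted p = 0.512). For ABCA4 and RDH12 these p-values do not show that the groups are equal.

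RBP3, the retinoid carrier of the interphotoreceptor matrix, was the most abundant of the 8 in both groups. The normal samples had 345.6, 280.9 and 295.6 FPKM. The PVR samples had 244.4, 229.6 and 250.5 FPKM, all lower. Its fitted log2 fold change was -0.42 (SE 0.10), with an adjusted p of 0.0916 from edgeR and of 0.00625 from DESeq2. In the other 14 settings the adjusted p was 0.0851 or more.

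RDH11, a broadly expressed retinol dehydrogenase of photoreceptors and RPE, had samples that lay close together within each group. It had 15.2, 15.8 and 16.7 FPKM in the normal retinas against 11.8, 11.6 and 12.6 FPKM in the PVR samples. The gap between the groups was larger than the range within either. RDH11 was lower in PVR by a log2 fold change of -0.47 (SE 0.08, adjusted p = 0.0457), past the threshold on p and not on fold. The adjusted p was 0.117, 0.155, 0.0705, 0.262 and 0.111 without normal replicates 1, 2 and 3 and PVR replicates 1 and 2, and it was 0.0411 without PVR replicate 3.

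The order of the levels, compared per length in FPKM, was RBP3, ABCA4, RDH12, RPE65, RDH11, RDH10, LRAT and STRA6 in the normal samples. RDH11 and RDH10 overlapped in their ranges over the normal samples, and so did RDH10 and LRAT, so these neighbours did not differ beyond their spread. The order was the same in PVR, with no overlap between neighbours. The mean FPKM of RDH10 was 1.06 times that of LRAT in the normal and 4.24 times in the PVR samples, and that of RDH12 was 2.73 and 6.69 times that of RPE65.

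**Figure D3:**
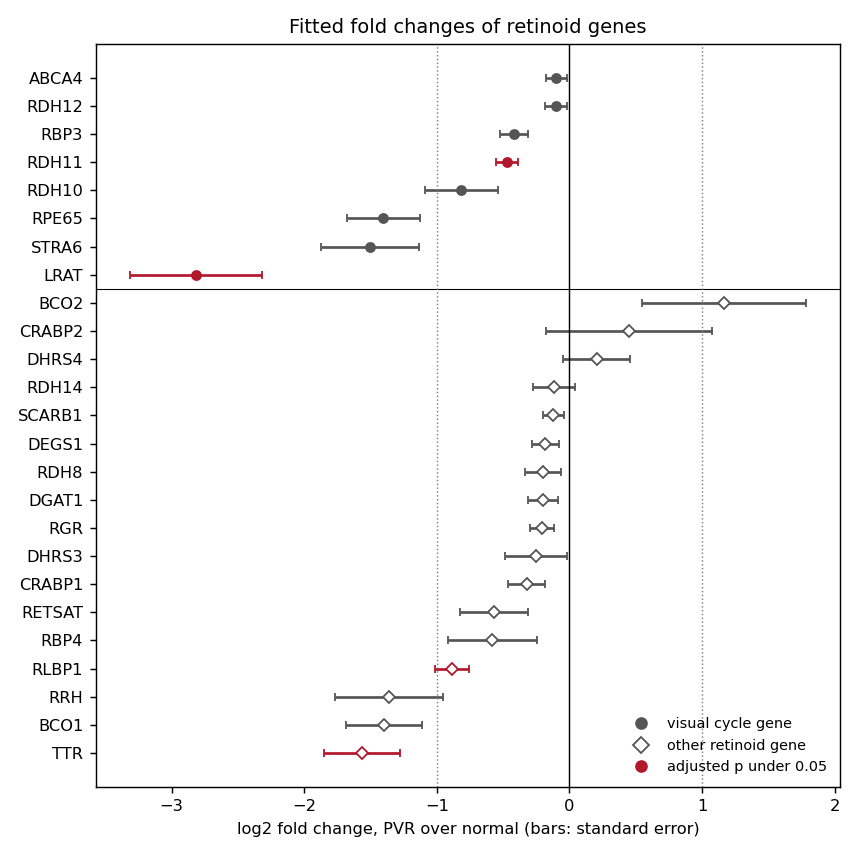
Fitted log2 fold change (PVR over normal, bars: standard error) of the 8 visual cycle genes (filled circles) and all but 1 of the 18 other retinoid genes (open diamonds), with dotted lines at -1 and 1. Red marks an adjusted p under 0.05 from edgeR, which LRAT, RDH11, TTR and RLBP1 have, and all 8 visual cycle genes lie below 0.

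Further genes of retinoid handling were taken from a list of 26, of which 22 had a row and 18 were tested. Of these 18, 15 had a fitted log2 fold change under 0, against 51.1% of all genes tested, and their median was -0.23. By adjusted p alone 2 were lower in PVR, TTR and RLBP1, against 0.615% of all genes tested, and TTR was past both thresholds. On TMM-scaled CPM every PVR sample was below every normal sample for 7 of the 18, against 14.6% of all genes tested, and on FPKM for 4, against 9.69%.

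TTR, transthyretin, carries RBP4 and its retinol and is made in the RPE. It had 1846, 3213 and 1522 counts in the normal retinas against 683, 516 and 915 in the PVR samples. In FPKM these were 70.4, 117 and 56.4 against 31.8, 23.7 and 31.6, with no overlap. TTR fell by 1.56 on the log2 scale (SE 0.29, adjusted p = 0.0478). As for LRAT, the adjusted p was above 0.05 in 9 of the 15 other settings. It was 0.116, 0.0772, 0.227, 0.127 and 0.0572 without normal replicates 1 and 2 and PVR replicates 1, 2 and 3, and lower, at 0.0189, without normal replicate 3.

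RLBP1, which codes for the cis-retinal binding protein CRALBP of RPE and Müller glia, had the smallest p of the retinoid genes. The normal samples had 85.6, 89.6 and 71.9 FPKM, and the PVR samples 47.0, 41.6 and 51.8 FPKM. The log2 fold change was -0.89 (SE 0.13, adjusted p = 0.0294), short of the fold threshold. Its adjusted p stayed under 0.05 in 10 of the 15 other settings. It was 0.0916, 0.0916, 0.188 and 0.0665 without normal replicates 1 and 2 and PVR replicates 1 and 2, and 0.0856 with the replicate block.

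RDH8, which reduces all-trans-retinal in outer segments, had 135.8, 116.3 and 93.9 FPKM in the normal retinas against 105.9, 106.3 and 105.0 in the PVR samples. These overlapped (log2 fold change -0.20, SE 0.14, adjusted p = 0.426). RGR, a retinal-binding opsin of RPE and Müller glia, had 41.7, 43.9 and 48.1 FPKM in the normal retinas against 42.1, 42.2 and 37.5 in the PVR samples. Its log2 fold change was -0.21 (SE 0.09, adjusted p = 0.242). RBP4, the retinol carrier of blood, had between 75 and 222 counts per sample and a log2 fold change of -0.58 (SE 0.34, adjusted p = 0.353). It was -1.04 without PVR replicate 3 and -0.36 without PVR replicate 2.

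A pair of genes outside the naming rule were picked out after their values had been seen. RRH, the RPE opsin peropsin, had 215, 330 and 108 counts in the normal retinas against 77, 65 and 98 in the PVR samples (log2 fold change -1.36, SE 0.40, adjusted p = 0.126). BCO1, which cleaves beta-carotene to retinal, had 154, 229 and 131 counts in the normal retinas against 57, 56 and 69 in the PVR samples (log2 fold change -1.40, SE 0.29, adjusted p = 0.0634). With edgeR neither passed the threshold on all samples, and both did without normal replicate 3. With DESeq2 both passed on all samples (adjusted p = 0.0141 for RRH and 0.00128 for BCO1). For each gene these were the only 2 of the 15 other settings with an adjusted p under 0.05. Without PVR replicate 1 it was 0.353 for RRH and 0.271 for BCO1.

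The retina label was checked against marker genes. Rod markers dominated, with a summed level between 47767 and 56353 CPM in the normal retinas and between 34337 and 46497 CPM in the PVR samples over 16 genes. Their median log2 fold change was -0.30, with 15 of 16 under 0, and none passed the test. Every PVR sample was below every normal sample in 9 of 16 on TMM-scaled CPM and in 2 of 16 on FPKM, against 14.6% and 9.69% of all genes tested. The 10 cone markers had a median of -0.26. ABCA4, RDH12 and RBP3 thus stood among rod genes whose fitted values were mostly under 0. Expressed as a log2 ratio to the geometric mean FPKM of the rod markers in the same sample, ABCA4 was -1.34 ± 0.18 (SD, n = 3) in the normal and -1.19 ± 0.14 (SD, n = 3) in the PVR samples. RDH12 was -2.10 ± 0.19 (SD, n = 3) and -1.95 ± 0.16 (SD, n = 3). RBP3 was -0.86 ± 0.10 (SD, n = 3) and -1.03 ± 0.06 (SD, n = 3), lower in every PVR sample. Between the groups these ratios differed by 0.15, 0.14 and -0.17 on the log2 scale, and only that of RBP3 had no overlap. PRPH2, a rod disc protein in this reference, had 1430 counts in normal replicate 3 against 22049 and 20088 in the other normal samples. Without PRPH2 the differences were 0.16, 0.16 and -0.16.

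RPE markers that play no part in the retinoid cycle did not share a direction, and none passed the test. Of 15 such genes 14 had a row, and 13 were tested, with a median log2 fold change of -0.18. Of the 13, 8 were under 0 and 5 above. A fold change under -1, whatever its p, was fitted for 4 of the 13, against 3.43% of all genes tested. TYRP1, a melanin enzyme, SLC16A8, a lactate transporter, and KRT18, a keratin, were lower in every PVR sample, with log2 fold changes of -0.96, -1.61 and -1.72 and adjusted p of 0.112, 0.0926 and 0.0799. CLDN19 and KRT8 were also under -1, at -1.92 and -1.67, with overlap and with at most 34 and 56 counts in any sample. BEST1, an RPE chloride channel, was higher in every PVR sample (0.53, adjusted p = 0.215). Its level was low, with a mean FPKM of 0.41 in the normal and 0.63 in the PVR samples. MITF, a transcription factor of pigment cells, stood at 0.00, and DCT and TYR at 0.35 and -0.52 with wide spread. The summed level of the 14 genes was between 83.6 and 124.8 CPM in the normal retinas and between 55.2 and 97.9 CPM in the PVR samples. Melanin genes are also expressed by melanocytes of the choroid, the vascular layer behind the RPE. How much RPE each retina sample carried is not stated in the sources used here, and its part in the values of LRAT, RPE65, STRA6 and TTR was not tested.

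The log2 ratio of LRAT to 13 RPE markers, leaving out PMEL for its zero counts, was 3.41, 3.56 and 2.06 in the normal samples. It was 0.97, 1.52 and 0.81 in the PVR samples, a difference of means of -1.91 with no overlap. That of RPE65 was 5.36 ± 0.39 (SD, n = 3) and 4.73 ± 0.75 (SD, n = 3), and those of STRA6 and RDH10 differed by -0.71 and -0.06, all with overlap. Over the 9 markers with a mean count of at least 50, a choice made after seeing the data, the differences were -2.09 for LRAT, -0.81 for RPE65, -0.88 for STRA6 and -0.23 for RDH10. STRA6 then had no overlap. LRAT was also lower against RPE65 itself: the log2 ratio of their FPKM was -2.24, -1.96 and -2.86 in the normal retinas against -3.61, -4.02 and -3.26 in the PVR samples.

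Marker lists of other cells also differed in level between the groups or between samples. None of the immune cell or lens markers passed the test. All 8 immune cell markers had a log2 fold change above 0, with a median of 1.14, and in 7 of the 8 every PVR sample was the higher on TMM-scaled CPM, against 13.4% of all genes tested. All 8 oligodendrocyte markers were lower in every PVR sample on that scale, and 6 of the 8 on FPKM, against 14.6% and 9.69% of all genes tested. Their summed level was between 216.7 and 1175 CPM in the normal samples, the highest in normal replicate 3. In PVR it was between 123.7 and 149.1 CPM. Of the 8, MAG and MOBP, which code for myelin proteins, passed the test (log2 fold changes of -4.98 and -5.76, adjusted p of 0.0478 and 0.0285 by edgeR). That is 2 of 8, against 0.615% of all genes tested that were lower by adjusted p. Normal replicate 3 was thus the lowest normal sample in LRAT, RPE65, STRA6 and RDH10 and the highest in myelin genes. Lens markers summed to 32732 CPM in normal replicate 2, which was the highest normal sample in the same 4 genes. In the other normal samples they summed to 12.2 and 15.6 CPM, and in PVR to between 261.6 and 300.2 CPM. Over the 8 Müller glia markers the median log2 fold change was 0.03, and 4 of the 8 lay under 0. Of the 8, 1 passed the test, against 0.615% of all genes tested that were lower by adjusted p. GLUL, the glutamine synthetase of these cells, fell by 1.11 on the log2 scale (adjusted p = 0.0125 by edgeR). GFAP, from the same list, was higher in every PVR sample (log2 fold change 1.39, adjusted p = 0.143 by edgeR). The 8 endothelial markers had a median of -0.97, with 5 under 0. Of the 8, VWF, the von Willebrand factor, and CDH5, the endothelial cadherin, passed the test (log2 fold changes of -5.02 and -6.86, adjusted p of 0.0119 and 0.0301 by edgeR). That is 2 of 8, against the same 0.615%. CDH5 had 24, 41 and 103 counts in the normal and 0, 0 and 1 in the PVR samples, so its fold rests on counts near 0. FLT1 was higher in every PVR sample (0.27, adjusted p = 0.143 by edgeR), and PECAM1 and KDR were at 0.23 and 0.17 with overlap. The summed level of the 8 was 1.11 times as high in PVR, and KDR and FLT1 held most of that sum. Their means were 412 and 202 CPM in the normal and 463 and 243 CPM in the PVR samples. Those of VWF were 15.2 and 0.46 CPM. The part of these cells and samples in the retinoid genes was not tested, beyond leaving out each sample in the fits of the retinoid genes.

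**Figure D4:**
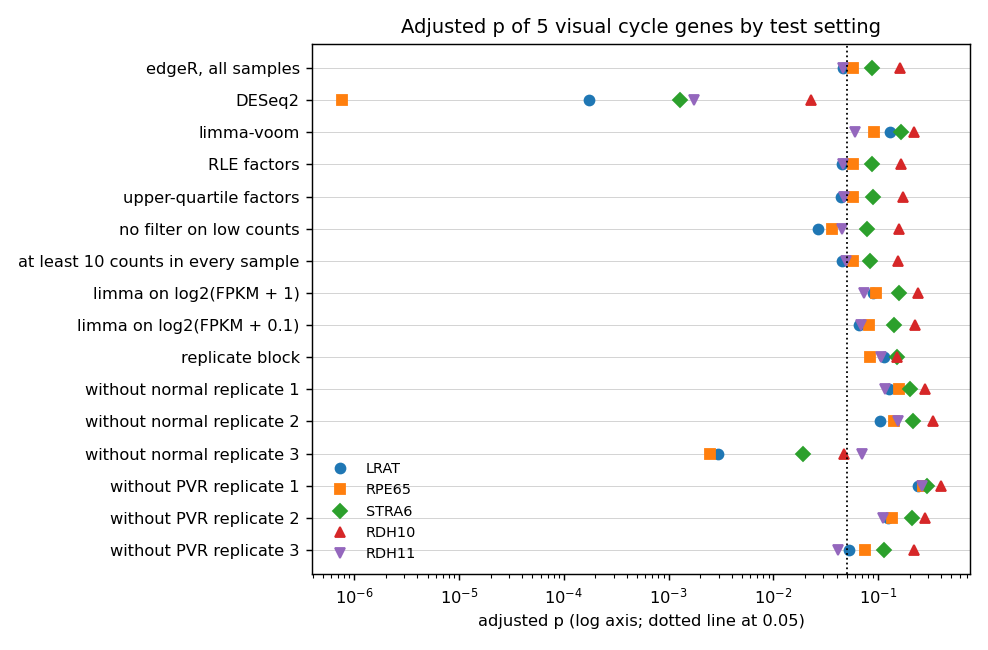
Adjusted p (horizontal log axis) of LRAT, RPE65, STRA6, RDH10 and RDH11 in the edgeR test of all 6 samples and in 15 other settings (rows), with a dotted line at 0.05. The 5 genes lie left of the line with DESeq2, and LRAT, RPE65, STRA6 and RDH10 do without normal replicate 3, while all 5 lie right of it without PVR replicate 1.

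The genes whose log2 CPM followed that of LRAT most closely over the 6 samples were ADO, CACNG8 and THOC6 (Pearson r of 0.997, 0.995 and 0.994), among 11602 genes with a symbol and a mean log2 CPM of at least 1. For RPE65, RETREG3 and CNR1 were among the 3 closest (r of 0.996 and 0.995). For ABCA4 they were ABCC8, ZBTB11 and ITSN2 (r of 0.982, 0.978 and 0.977). Such an r compares the shape over 6 libraries and not the size, and the best of so many genes is high by selection. ADO had between 98.3 and 113.9 CPM in the normal and between 87.1 and 90.0 CPM in the PVR samples, a log2 fold change of -0.29, where that of LRAT was -2.82.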

How the data were processed

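The authors sequenced polyadenylated RNA of 3 normal and 3 PVR rabbit retina samples, aligned it to OryCun2.0 with HISAT2 and counted it with htseq-count. The submitters' notes also name fastp. Strand setting and annotation release are not given in the sources used here. The deposited counts are raw, and the authors' FPKM values divide the same counts by gene length and library total. Whether samples of a group are separate animals is not stated, so p-values measure the spread between these samples.

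Counts were tested in R 4.3.3 with edgeR 4.0.16 (quasi-likelihood, TMM, default low-count filter, 18697 of 28788 genes kept) and Benjamini-Hochberg adjustment over all genes tested. Standard errors are the fold change divided by the square root of F. The thresholds are those of the study's methods, 0.05 for the adjusted p and 1 for the size of the log2 fold change. The study applied them with an earlier version of DESeq2. With DESeq2 as run here, LRAT, RPE65 and STRA6 passed both, where edgeR called LRAT alone of the 8. Alternatives used DESeq2 1.42.0 and limma 3.58.1, other scalings and filters, FPKM with pseudocounts of 1 and 0.1, the replicate number as a block, and the removal of each sample in turn. The tests were tested on simulated data, where DESeq2 had a larger share of false calls than edgeR. Those counts were drawn with edgeR's own estimates of spread, so they do not rank the tools on the samples used here. Within a group, samples differed by far more than counting noise (chi-square per degree of freedom from 20.8 to 195.9).

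Members and lists were chosen with earlier results of these data known. Named are all 9 members, those of 26 other retinoid genes with an adjusted p under 0.05, RLBP1, RDH8, RGR, RBP4 and TTR, marker genes on which a result turns, and the 3 genes most correlated with LRAT, RPE65 and ABCA4. Of these, 1 retinoid gene and 1 correlated gene are not reported here, and the counts over the list include the former. Genes without a row under their symbol were matched by gene ID in RefSeq's annotation of mOryCun1.1, which was used for names and neighbours only. RDH13, RDH16, RDH20, RBP7, GPR143 and LIM2 were not matched and are not analysed here. Sequences and coordinates were not used here.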

Additional observations from a re-analysis of the deposited data

How the results depend on the processing

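All 8 visual cycle genes tested kept a fitted log2 fold change under 0 in all 15 settings. The number past both thresholds was 1 of the 8 (LRAT), 1 other retinoid gene (TTR) and 188 of all 18697 genes tested. In that order of counts, the numbers were 3, 3 and 807 with DESeq2, which gave a fold change for 24960 genes. They were 0, 0 and 87 on log2(FPKM + 1), and 0, 0 and 82 with the replicate block. With limma-voom they were 0, 0 and 129, and on log2(FPKM + 0.1) 0, 0 and 168. With no filter on low counts they were 2, 1 and 232, of 24960 genes. With 1 sample left out the numbers ranged from 0 to 4, from 0 to 3 and from 22 (without PVR replicate 1) to 436 (without PVR replicate 3). Those of all genes were 81, 64, 370 and 93 without normal replicates 1, 2 and 3 and PVR replicate 2. Between 19187 and 19413 genes were tested with 1 sample left out. DESeq2 added RPE65 and STRA6, and leaving out normal replicate 3 added RPE65, STRA6 and RDH10. The cause was not tested. RLE and upper-quartile scaling, and at least 10 counts in every sample, gave 1 and 1 again, beside 188, 193 and 129 of all genes. The replicate numbers are not said to pair the samples, and the deviations of same-numbered samples correlated by -0.013, 0.073 and 0.042. Not every sample correlated best with its own number. With the replicate block the adjusted p was 0.114 for both LRAT and TTR.

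Reversed directions were seen for RDH14 (0.014 without normal replicate 2), DHRS4 (-0.01 without PVR replicate 2) and CRABP2 (-0.35 without PVR replicate 3), none past a threshold. With single samples left out they ranged from -0.20 to 0.014, from -0.01 to 0.36 and from -0.35 to 0.74. Removing PRPH2 or sparse markers moved no difference between the groups in a within-sample ratio by more than the SD of its normal samples. RDH5 had too few counts to be tested. The adjusted p of LRAT, RDH11 and TTR were between 0.0457 and 0.0478, just under the threshold.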
